A study of Mus musculus with 4 samples.

Results

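Copying DNA and dividing were followed in infarcted mouse hearts through 44 genes of S phase and mitosis, chosen by gene symbol from 32285 measured genes. All 44 symbols were found once each. Of these genes, 30 act in mitosis or its entry and 14 act in DNA replication. The mitosis genes were grouped as 8 entry kinases and cyclins, 4 genes of the spindle checkpoint and the anaphase-promoting complex, 4 of the kinetochore and centromere, 8 spindle motors and microtubule factors, 3 of cytokinesis and 3 of chromosome structure. The S phase genes were grouped as 8 of the replication helicase and its licensing, 4 of nucleotide supply and the replication fork, and 2 of replicated chromatin.

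A dividing cell first loads the MCM helicase on its origins and makes nucleotides to copy its DNA in S phase. It then builds up cyclin B with its kinase Cdk1, condenses and attaches its chromosomes to the spindle, destroys the cyclins through the anaphase-promoting complex and cuts itself apart. The mRNAs of most of these proteins are made only in cycling cells, with those of S phase driven by E2F factors and those of mitosis driven by the MuvB complex with B-Myb and FoxM1 and held down in resting cells by the DREAM complex. Adult heart muscle cells rarely divide, whereas fibroblasts, endothelial cells and macrophages of a healing infarct can proliferate.

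The mice were adult ICR animals, an outbred strain, 12 weeks old when the left anterior descending (LAD) artery was tied off for good. There was 1 heart section from 1 mouse on each of days 1, 4, 7 and 14 after ligation, and no section of an uninjured or sham-operated heart was analysed here. Visium captured mRNA of fresh-frozen 10 µm sections on spots that each cover several cells, and molecules were counted per gene and spot by their unique identifiers (UMIs). The results text of the study names day 2 for the first section, and its sample label and methods name day 1, which is used here.

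Spots with over 1% of their UMIs in hemoglobin genes were left out, and 7503 of 9102 spots with 51309053 UMIs remained. The 44 genes held 17385 of these UMIs, or 0.0339%, between 58 and 2414 for a single gene. Within each section, the spots were ranked by the share of their UMIs from Myh6 and Myl2, the alpha myosin heavy chain and ventricular light chain of heart muscle, and cut into 4 quartiles of equal spot number. Values are UMIs per 1000000 UMIs of a quartile (CPM), with exact Poisson 95% intervals that cover counting error only. The lowest quartile was not the same tissue on every day. Its Myh6 and Myl2 share in the day 1, 4, 7 and 14 sections was 0.773%, 0.271%, 0.229% and 1.53%, against 2.56% to 2.82% in the highest quartiles. On day 14 only 176 of its 522 spots were under 0.5%, and the median spot held 2329.5 UMIs, against 2826 to 6524.5 on the other days. On day 7, 102 of its 462 spots had over 1% of their UMIs in 7 fast skeletal muscle genes. The 44 genes summed to 242 CPM (95% interval 199 to 292) in those spots and to 854 (798 to 913) in the other 360 spots of that quartile. With spots, fewer cells of a type and less RNA per cell cannot be told apart.

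RefSeq promoter windows, from 250 bases before to 50 bases after a transcription start on GRCm38.p6, were given for 37 of the 44 genes in 41 windows, with none for Aurkb, Ccna2, Gins2, Kif20a, Mcm4, Stmn1 and Tpx2. The CHR element, written TTTGAA or TTCGAA, was in 22 of the 27 windows of mitosis genes (81.5%), in 2 of the 14 windows of S phase genes (14.3%) and in 19.2% of all 32851 windows. An E2F word, TTTCCCGC, TTTGGCGC, TTTCGCGC or TTTGCCGC, was in 1 window of the mitosis genes (3.70%), in 7 windows of the S phase genes (50%) and in 2.26% of all windows. The CCAAT box was common to both, in 24 (88.9%) and 11 (78.6%) of the windows, against 37.4% of all. Both strands were searched, TTCGAA reads the same on both, and E2F words can overlap each other. The stretches below run from 170 bases before to 30 bases after the start, 5′ to 3′ along the gene, with these words in capitals. Bub1 shows the layout of most mitosis genes, with CHR and CCAAT words and no E2F word. Cdk1 has both words too, but it is the 1 mitosis window with an E2F word. Mcm5 and Mcm6 are S phase genes with E2F words. Cenpa and Cenpf are shown because their levels ran against those of the other mitosis genes.
The Cdk1 stretch lies at chr10:69352883-69353082 (minus strand), Bub1 at chr2:127831830-127832029 (minus strand), Cenpa at chr5:30666716-30666915 (plus strand), Cenpf at chr1:189688057-189688256 (minus strand), Mcm5 at chr8:75109339-75109538 (plus strand) and Mcm6 at chr1:128359676-128359875 (minus strand).
Cdk1: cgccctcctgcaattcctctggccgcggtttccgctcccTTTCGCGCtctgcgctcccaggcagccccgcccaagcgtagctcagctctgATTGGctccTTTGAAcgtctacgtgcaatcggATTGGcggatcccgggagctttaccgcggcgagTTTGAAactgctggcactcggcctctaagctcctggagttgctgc
Bub1: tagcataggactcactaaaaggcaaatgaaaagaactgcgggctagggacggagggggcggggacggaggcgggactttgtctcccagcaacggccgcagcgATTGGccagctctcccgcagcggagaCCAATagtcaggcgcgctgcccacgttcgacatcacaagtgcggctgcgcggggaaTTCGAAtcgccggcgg
Cenpa: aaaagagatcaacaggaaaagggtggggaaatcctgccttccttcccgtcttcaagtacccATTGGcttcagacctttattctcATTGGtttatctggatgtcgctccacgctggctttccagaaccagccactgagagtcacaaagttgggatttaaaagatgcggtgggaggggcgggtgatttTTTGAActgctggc
Cenpf: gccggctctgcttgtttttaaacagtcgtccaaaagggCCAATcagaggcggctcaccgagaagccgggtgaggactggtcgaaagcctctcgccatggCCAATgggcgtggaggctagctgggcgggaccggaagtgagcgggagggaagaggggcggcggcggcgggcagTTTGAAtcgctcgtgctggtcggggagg
Mcm5: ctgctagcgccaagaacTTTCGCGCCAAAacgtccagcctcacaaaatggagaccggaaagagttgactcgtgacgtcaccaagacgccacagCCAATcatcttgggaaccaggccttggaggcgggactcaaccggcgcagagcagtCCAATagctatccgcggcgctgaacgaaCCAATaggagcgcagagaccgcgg
Mcm6: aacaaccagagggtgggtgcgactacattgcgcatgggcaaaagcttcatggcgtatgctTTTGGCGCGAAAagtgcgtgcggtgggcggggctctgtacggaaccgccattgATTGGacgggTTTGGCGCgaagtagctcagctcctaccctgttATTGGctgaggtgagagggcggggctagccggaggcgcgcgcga
The Cdk1 stretch held 2 CHR words, 2 CCAAT boxes and 1 E2F word. The stretches of Bub1, Cenpa and Cenpf each held 1 CHR word and 2 CCAAT boxes and no E2F word. Mcm5 held 2 E2F words that overlap and 3 CCAAT boxes, and Mcm6 held 3 E2F words and 2 CCAAT boxes, and neither held a CHR word.

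The first comparison asked in which spots of a section, ranked by muscle RNA, the genes were found. By CPM, they were higher in the spots with the least heart muscle RNA on all 4 days. By quartiles the gap was smallest on day 14, but that rank depended on the cut. In the lowest and highest decile of spots, the 44 genes held 796 and 203 CPM on day 14 and 682 and 188 on day 7. Summed over the 44 genes, the lowest quartile of the day 1, 4, 7 and 14 sections held 860 (825 to 895), 1442 (1398 to 1488), 667 (625 to 710) and 292 (269 to 316) CPM. The highest quartile held 206, 202, 208 and 200 on the same days, with overlapping intervals. In the same order, the lowest quartile exceeded the highest 4.18-fold (3.82 to 4.58), 7.15-fold (6.62 to 7.73), 3.20-fold (2.88 to 3.56) and 1.46-fold (1.31 to 1.62), so the gap was widest on day 4. These folds are per total UMIs, a scaling that raised most genes in the lowest quartile. Fitted over the 4 sections on that scaling, the median log2 fold change was 0.73 over all 12694 genes tested and 3.53 over the 44. The level in the muscle-rich quartile was mostly that of 5 genes, Cenpa, Cenpf, Hmgb2, Pcna and Stmn1. Without them, a choice made after the values were seen, the highest quartiles held 62.3 to 86.4 CPM, and the lowest exceeded the highest 10.2-fold, 16.7-fold, 5.75-fold and 2.31-fold.

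**Figure D1:**
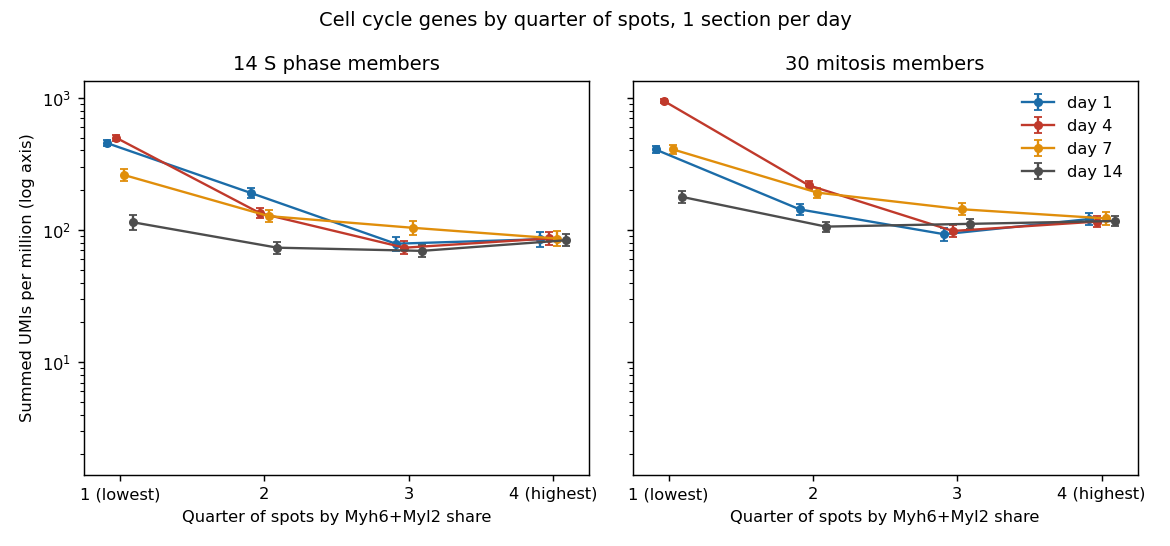
Summed CPM (log axis) of the 14 S phase genes (left) and the 30 mitosis genes (right) in each quartile of spots, from the lowest to the highest share of Myh6 and Myl2, with 1 line per day and exact Poisson 95% intervals. In the lowest quartile the mitosis genes are highest on day 4, at 943, while the S phase genes are close on day 1 (454) and day 4 (500).

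Across the 4 sections, with the section as a block, edgeR called 40 of the 44 genes higher in the lowest than in the highest quartile and 2 lower at an adjusted p under 0.05. Of all 12694 genes tested, 26.9% were called higher and 24.1% lower. The median log2 fold change was 2.84 over the 44 genes and 0.07 over all genes tested. All 14 S phase genes had positive values, with a median of 1.87 and 12 called. Of these 12, Cdc6, which loads the helicase, was near the threshold (1.60, adjusted p = 0.0468) and lost its call in 9 alternatives, DESeq2 among them (adjusted p = 0.0894). Mcm3, a helicase subunit, lost its call without day 1 (adjusted p = 0.0924) or day 4 (0.0875), and Gins2, a subunit of the same helicase complex, without day 4 (0.0867). Of the 30 mitosis genes 28 were called higher, and their median was 3.08. Leaving out the day 4 section left 38 of the genes tested, with 28 called higher and a median of 2.18. The p-values rest on the spread left over the 16 libraries after the section and quartile terms, to which the 2 middle quartiles contribute. The 4 sections differ in day.

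**Figure D2:**
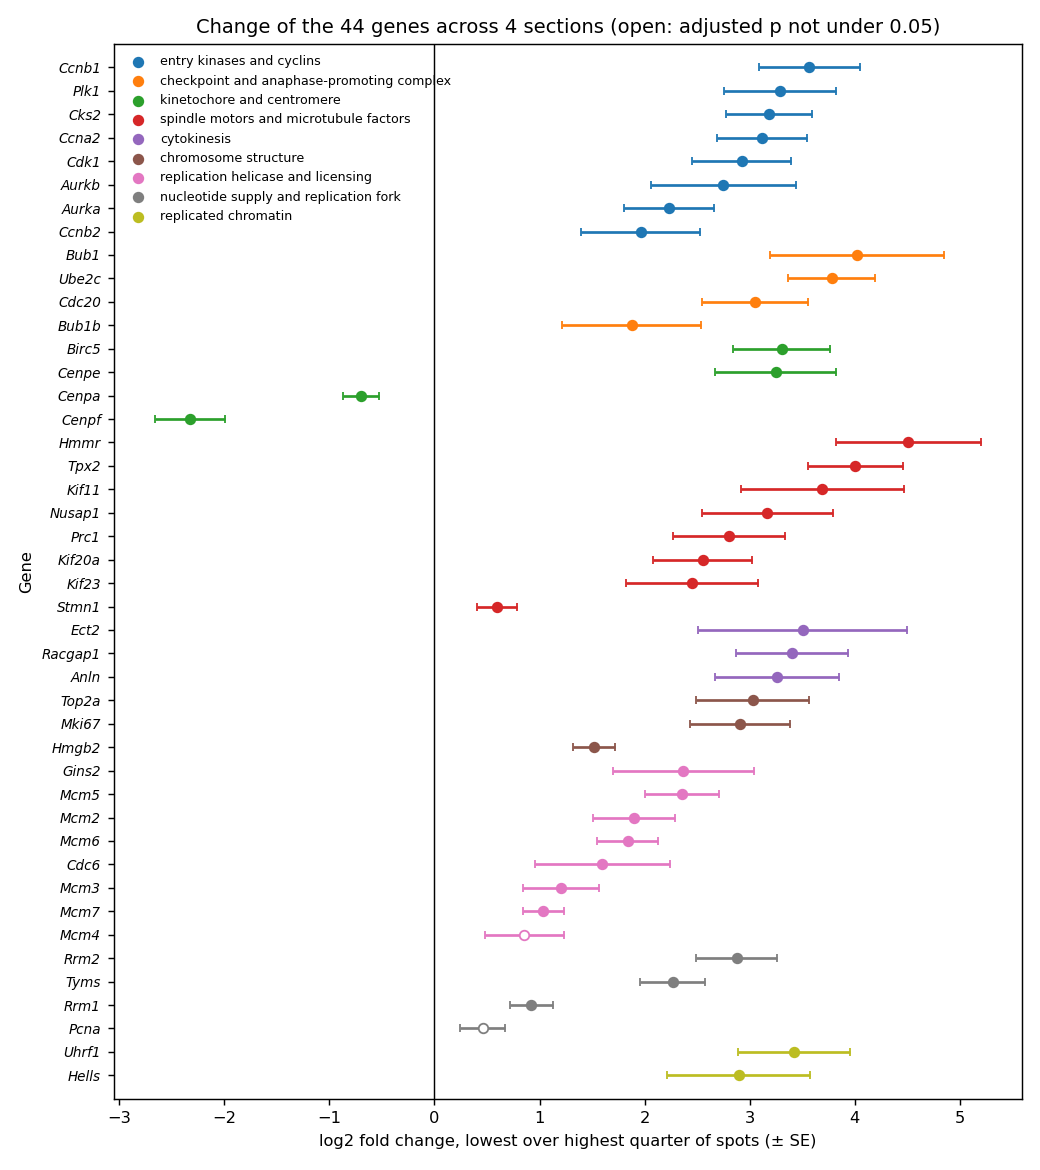
Log2 fold change of each of the 44 genes between the lowest and the highest quartile of spots (edgeR, 4 sections; bars are standard errors), coloured by role, with open points where the adjusted p was not under 0.05. Cenpf and Cenpa lie left of 0, Pcna and Mcm4 are open, and Hmmr, Bub1 and Tpx2 lie farthest to the right.

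The entry kinases and cyclins were all 8 called higher, with log2 fold changes of 1.96 to 3.57. Cdk1, the kinase that drives cells into mitosis, was at 29.2, 50.4, 17.7 and 9.12 CPM in the lowest quartile on days 1, 4, 7 and 14. In the highest quartile it was at 2.41, 1.05, 1.92 and 2.62. The lowest quartile was above the highest in each section, as for 37 of the 44 genes and for 6743 of all 12694 genes tested. The log2 fold change of Cdk1 was 2.92 ± 0.47 (SE, adjusted p = 0.000147). Cks2, a small subunit of the Cdk1 complex, was at 28.9, 38.1, 22.4 and 6.24 in the lowest quartile and at 0.344 to 3.07 in the highest. Its log2 fold change was 3.18 ± 0.41 (adjusted p = 2.05e-05). Ccnb1, cyclin B1, had the largest change of this group, 3.57 ± 0.48, with 23, 82, 19 and 4 UMIs in the lowest quartile of the 4 days against 0, 5, 1 and 2 in the highest. Ccnb2, cyclin B2, had only 7 UMIs in the day 1 lowest quartile and 58 on day 4. Without the day 4 section its log2 fold change of 1.96 dropped to 1.03 and was not called (adjusted p = 0.243).

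All 4 genes of the checkpoint and the anaphase-promoting complex were called higher. Ube2c, the ubiquitin-conjugating enzyme of that complex, was at 19.4, 72.9, 32.6 and 8.64 CPM in the lowest quartile and at 0.344 to 2.30 in the highest, a log2 fold change of 3.78 ± 0.41 (adjusted p = 7.08e-06). Cdc20, its activator in metaphase, was at 14.3, 28.6, 10.2 and 3.84 against 0.263 to 2.69. In the lowest quartile both genes were therefore lowest on day 14 and highest on day 4. Bub1, a checkpoint kinase of the kinetochore, had the second largest change of all 44 genes, 4.02 ± 0.83 (adjusted p = 0.000786), on 10, 33, 3 and 4 UMIs in the lowest quartiles against 0, 0, 1 and 1. Without the day 4 section Bub1 had too few UMIs to be tested. Bub1b was higher in 3 of the 4 sections, and on day 14 it had 1 UMI in the lowest and 6 in the highest quartile. Its call (1.88, adjusted p = 0.0267) was lost between deciles (adjusted p = 0.089), with only the lowest and highest quartile in the fit (0.056), and without day 1 (0.092), day 4 (0.168) or day 7 (0.0966).

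The spindle motors and microtubule factors were all 8 called higher. Hmmr, a microtubule-binding protein of the spindle, had the largest change of all members, 4.51 ± 0.69 (adjusted p = 7.45e-05), on 14, 50, 5 and 5 UMIs against 1, 0, 0 and 1. It also had too few UMIs to be tested without day 4. Tpx2, which targets Aurora A to the spindle, followed with 4.00 ± 0.45 and was at 9.87, 36.3, 14.3 and 2.88 CPM in the lowest quartile against 0.238 to 0.790 in the highest. Prc1, which bundles the microtubules of the midzone, was at 14.6, 38.1, 12.9 and 2.40 against 0.344 to 2.30. For each of these 3 genes the lowest quartile was above the highest in every section, as it was for 6743 of all 12694 genes tested. Stmn1, a microtubule-destabilizing protein that non-dividing cells also make, had the smallest change of this group, 0.60 ± 0.19 (adjusted p = 0.0145). It was at 26.3, 73.2, 35.4 and 23.5 in the lowest quartile and at 14.6 to 16.4 in the highest, so it was measurable in both. Its call was lost without the hemoglobin filter (adjusted p = 0.0971), in spots of at least 1000 UMIs (0.0631), with only the lowest and highest quartile in the fit (0.0607), without the section block (0.0517) and without day 4 (0.33, adjusted p = 0.183). Kif23, a kinesin of the midzone, also lost its call without day 4 (2.07, adjusted p = 0.064).

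In cytokinesis, Racgap1, a regulator of the cleavage furrow, was at 10.96, 33.7, 12.2 and 2.88 CPM in the lowest quartile against 0.263 to 2.30 in the highest, and Anln, an actin-binding scaffold of the furrow, was at 8.40, 18.9, 8.16 and 1.92 against 0.263 to 0.714. Both were called higher, with log2 fold changes of 3.40 ± 0.53 and 3.26 ± 0.59. Of the chromosome proteins, Mki67, the source of the Ki-67 antigen, was at 16.4, 66.7, 27.9 and 4.80 in the lowest quartile and at 1.03 to 4.99 in the highest. The day 14 lowest quartile was thus under the day 7 highest quartile, although within each section the lowest was above. Its log2 fold change was 2.91 ± 0.48 (adjusted p = 0.000165). Hmgb2, a DNA-bending protein, was at 39.1, 66.0, 42.2 and 21.1 against 7.57 to 9.75 and changed less, by 1.52 ± 0.20 (adjusted p = 2.64e-05).

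The S phase genes had the smaller median change, which was not tested against that of mitosis. Mcm6, a subunit of the helicase, was at 43.8, 48.6, 31.3 and 11.5 CPM in the lowest quartile against 3.78 to 7.68 in the highest, a log2 fold change of 1.84 ± 0.29 (adjusted p = 9.15e-05). Mcm7, another subunit, was at 31.1, 38.8, 22.4 and 11.5 against 4.99 to 12.0 and changed by 1.04 ± 0.20. Its locus overlaps the counted genes Ap4m1 and Cops6 on the opposite strand. Those of Cdc20, Ube2c and Prc1 above overlap Elovl1, Tnnc2 and Rccd1 in the same way. So do those of Ccna2, Gins2, Kif20a and Nusap1, with Exosc9, Gse1, Cdc23 and Oip5. Mcm4 was at 26.7, 22.8, 14.3 and 2.40 against 4.82 to 5.79 and was not called (0.86 ± 0.38, adjusted p = 0.0695). In its case the day 14 lowest quartile was under every highest quartile, and without day 14 edgeR called it (1.26, adjusted p = 0.00354). It was also called with total UMIs in place of TMM (1.51, adjusted p = 0.00442), also with Myh6 and Myl2 left out of them. Further calls came without the hemoglobin filter, ranked on 8 other heart muscle genes and between deciles.

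Pcna, the sliding clamp of the replication fork, had the most UMIs of the 44 genes and was measured in all quartiles. It was at 119, 117, 60.5 and 45.1 CPM in the lowest quartile and at 34.7, 39.8, 38.4 and 38.1 in the highest, and it was not called (0.46 ± 0.21, adjusted p = 0.0864). It was called when the lowest and the highest decile were compared (0.75, adjusted p = 0.00981). The same held with total UMIs in place of TMM (1.11, adjusted p = 0.000527), also with Myh6 and Myl2 left out of them. It held too with a minimum of 1000 UMIs (0.70, adjusted p = 0.0115) and without day 14 (0.64, adjusted p = 0.0475). Rrm1, the large subunit of ribonucleotide reductase, was at 39.1, 56.9, 36.0 and 14.9 against 10.5 to 12.8 and changed by 0.92 ± 0.21 (adjusted p = 0.00141). On day 14 its ratio of lowest to highest quartile was 1.16, with an interval that included 1 (0.720 to 1.83). Its partner Rrm2, made in S phase, changed by 2.87 ± 0.38. Uhrf1, which carries DNA methylation over to the new strand, was at 22.7, 25.0, 9.52 and 1.92 in the lowest quartile against 0.263 to 1.03, a change of 3.42 ± 0.53 (adjusted p = 8.43e-05). Hells, a chromatin remodeler, had 26, 17, 7 and 0 UMIs against 3, 1, 1 and 0, and changed by 2.89 ± 0.68.

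The 2 genes called lower were centromere genes. Cenpf (chr1:189640606-189688086), a large kinetochore protein that also binds microtubules outside mitosis, was at 6.94, 13.8, 8.84 and 14.4 CPM in the lowest quartile and at 44.03, 34.0, 26.9 and 32.4 in the highest. The lowest quartile was under the highest in all 4 sections, as for 1333 of all 12694 genes tested. The log2 fold change of Cenpf was -2.33 ± 0.33 (adjusted p = 7.42e-05). From the lowest to the highest quartile it was at 8.84, 11.6, 22.1 and 26.9 on day 7, and on days 1 and 4 the second quartile was the lowest, at 4.59 and 12.2. Cenpa (chr5:30666777-30674830), the histone H3 variant that marks centromeres, was at 33.3, 58.0, 23.1 and 29.8 in the lowest quartile and at 42.0, 35.8, 33.4 and 35.2 in the highest. It was called lower after TMM scaling (-0.70 ± 0.17, adjusted p = 0.00301), although on day 4 it was higher in the lowest quartile, 1.62-fold (1.28 to 2.05). On the other days its intervals included equality. With total UMIs in place of TMM, which moved the median of all genes from 0.07 to 0.73, Cenpa was not called (-0.04, adjusted p = 0.871), Cenpf was (-1.67, adjusted p = 0.000359), and 85.0% of all calls were higher in place of 52.8%. Both Cenpa and Cenpf carry the CHR and CCAAT words printed above, like most mitosis genes.

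**Figure D3:**
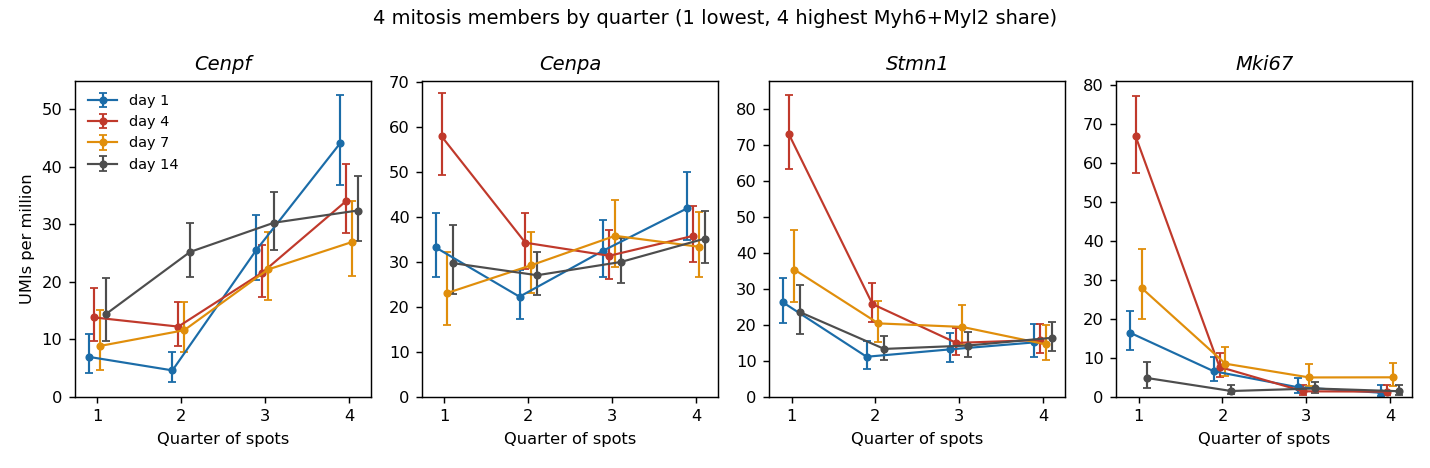
CPM of Cenpf, Cenpa, Stmn1 and Mki67 in each quartile of spots, 1 line per day with exact Poisson 95% intervals and linear axes from 0. Cenpf is lower in the lowest than in the highest quartile on each day and Mki67 higher, and Cenpa and Stmn1 have a level in all quartiles.

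The next comparison set the days side by side in the lowest quartile, with 1 mouse per day and so without a test. Of the 44 genes, 38 were highest on day 4, 5 on day 1 and 1, Cenpf, on day 14, and 41 were lowest on day 14. Of all 12235 genes with at least 20 UMIs over the 4 lowest quartiles, day 4 was the highest for 37.5%, day 1 for 17.5% and day 14 for 11%, while 53.4% had their lowest value on day 14. All 5 genes highest on day 1 were S phase genes, namely Mcm3, Mcm4, Mcm5, Pcna and Hells. Day 4 exceeded day 1 by at least 2-fold for 22 of the 44 genes, against 19.2% of all genes with at least 20 UMIs in both libraries together. Of these 22 genes, 21 were mitosis genes and 1 was an S phase gene, Gins2 of the helicase complex. Day 4 exceeded day 7 by at least 2-fold for 28 of 44 genes, against 5.63% of all genes, and day 14 for 41 of 43, against 34.5%. These 3 comparisons share the day 4 library. With the skeletal muscle spots left out, day 4 exceeded day 7 by that fold for 22 genes, against 3.29% of all.

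**Figure D4:**
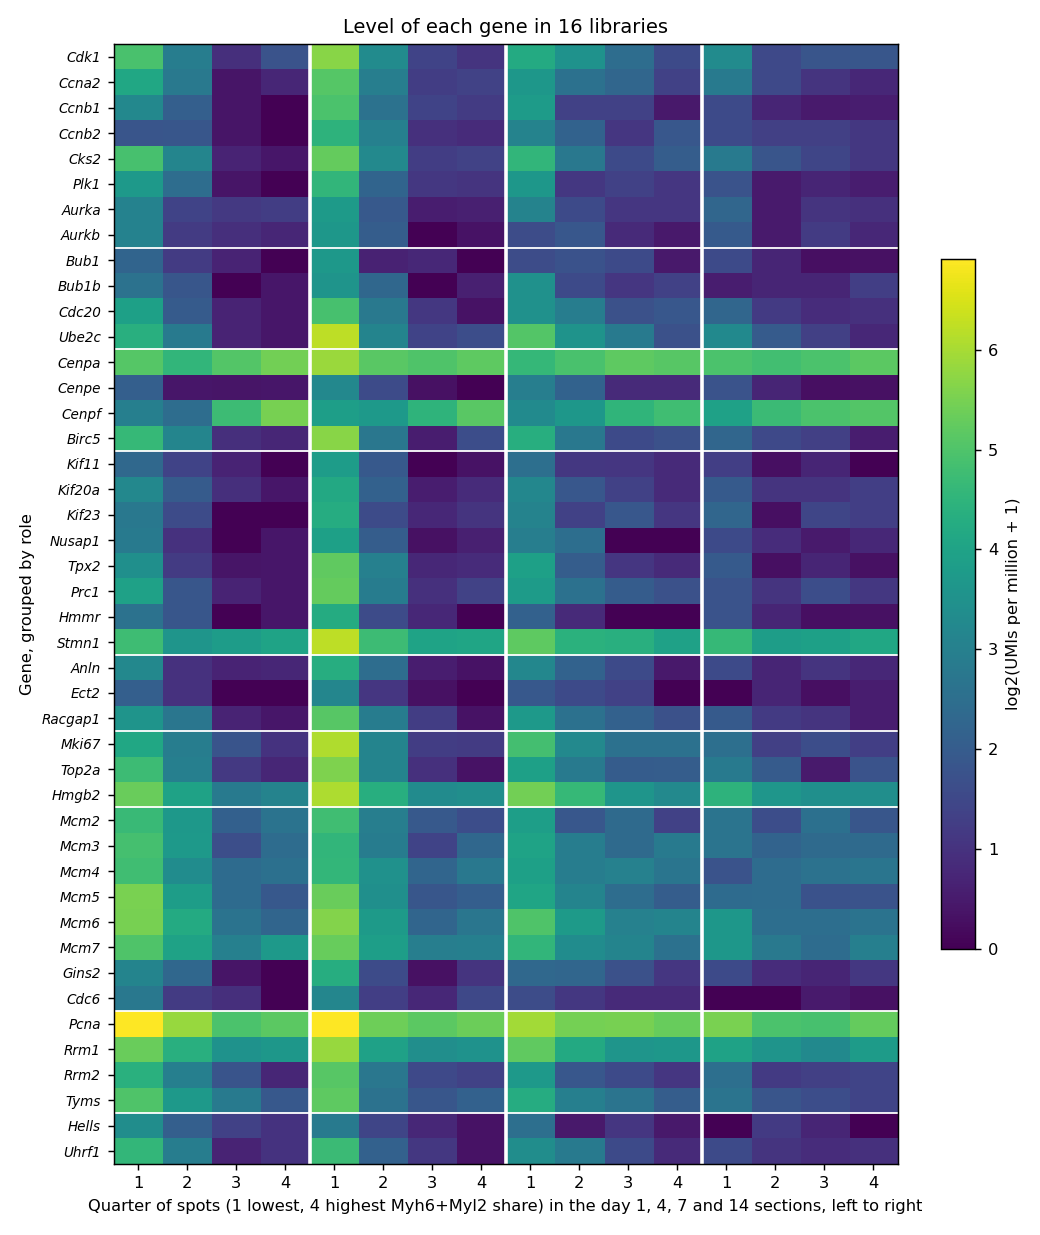
Level of each of the 44 genes, as log2(CPM + 1), in the 4 quartiles of spots of the day 1, 4, 7 and 14 sections (blocks from left to right), with genes grouped by role. The brightest column of most mitosis genes is the day 4 lowest quartile, the rows of Mcm3, Mcm4, Mcm5, Pcna and Hells are brightest on day 1, and Cenpf brightens toward the highest quartiles.

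S phase and mitosis genes differed in how day 1 stood to day 4. Mitosis genes summed to 406 CPM (382 to 431) on day 1 and 943 (907 to 979) on day 4, a ratio of 2.32 (2.16 to 2.49). S phase genes summed to 454 (429 to 480) and 500 (474 to 527), a ratio of 1.10 (1.02 to 1.19). Over all 11280 genes with at least 20 UMIs in both libraries together, the median log2 ratio of day 4 over day 1 was 0.342. That is a larger rise than that of the S phase sum and a smaller one than that of the mitosis sum. For single genes, the day 4 over day 1 interval lay above 1 for 27 of the 30 mitosis genes and for 3 of the 14 S phase genes, and lay below 1 for none. Over all genes with at least 20 UMIs in both libraries together, it lay above 1 for 38.6%. Ccnb2 had the highest ratio, 8.22 (3.75 to 21.3), and Mki67 was at 4.06 (2.91 to 5.75). Hells had the lowest, 0.649 (0.330 to 1.24), and Mcm5 was at 0.886 (0.678 to 1.16). For each mitosis UMI, the lowest quartile of days 1, 4, 7 and 14 held 1.12 (1.03 to 1.21), 0.530 (0.497 to 0.566), 0.639 (0.560 to 0.728) and 0.642 (0.543 to 0.757) S phase UMIs. The interval of day 1 overlapped none of the others. Without Cenpa, Cenpf, Hmgb2, Pcna and Stmn1 the 4 ratios were 1.11, 0.523, 0.670 and 0.774. This ratio was chosen after the values were seen.

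Because the lowest quartiles held different tissue, the days were also compared over spots with under 0.5% of UMIs in Myh6 and Myl2, a setting added after seeing the data. The day 1, 4, 7 and 14 sections had 62, 337, 407 and 176 such spots. The 44 genes then summed to 1351 CPM (1205 to 1510), 1652, 667 and 818 (714 to 934), so day 14 stood above day 7 in place of under it. Mitosis genes were at 654 (553 to 767), 1088, 412 and 547. S phase genes were at 697 (594 to 814) on day 1, above the 563 (531 to 596) of day 4 with intervals that just overlapped. In these spots day 4 exceeded day 1 by at least 2-fold for 13 of 41 genes, against 22.9% of all genes, and day 14 for 23 of 41, against 11.6%. The day 14 spots also held 1231 CPM of the 7 neutrophil markers, against 606 on day 1.

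By deciles of spots, the high levels lay at the muscle-poor end of the ranking in each section. On day 4 the mitosis genes went from 1331 CPM in the lowest decile through 844, 445 and 234 to 141 in the fifth, and stayed between 92.5 and 140 in the other 5 deciles. On day 14 they were at 521 in the lowest decile and at 152 in the next, with 99.5 to 124 in the rest. On day 7 the first 3 deciles were close, at 407, 435 and 342.

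**Figure D5:**
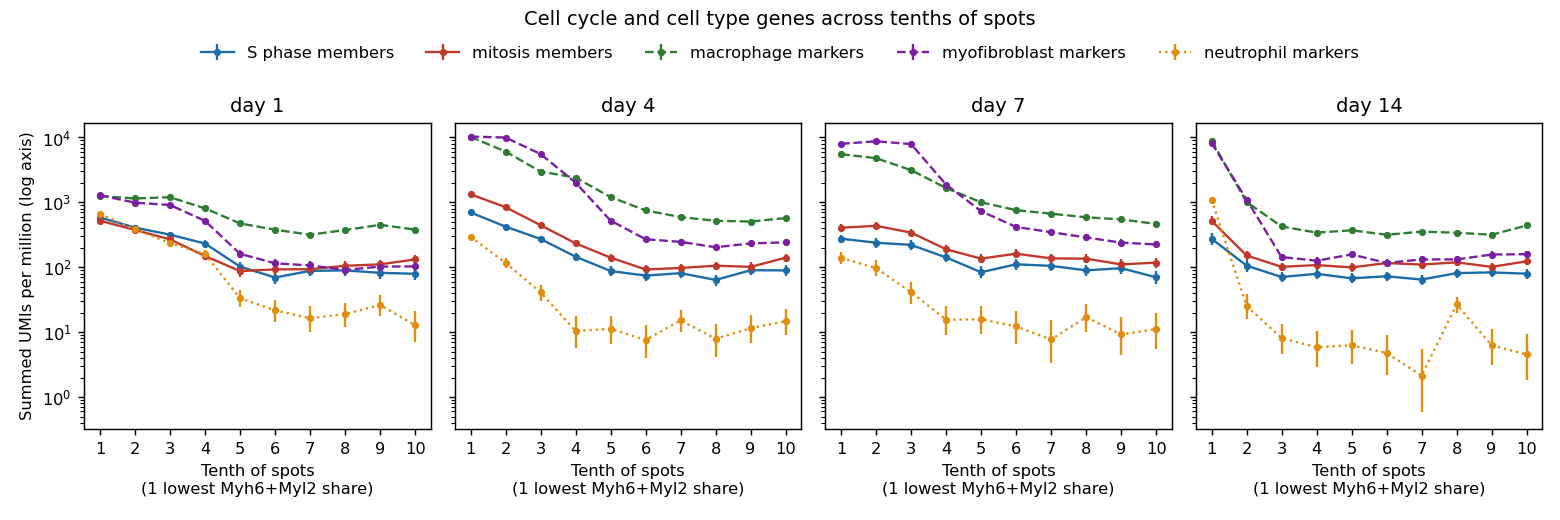
Summed CPM (log axis) of the S phase and mitosis genes and of the macrophage, myofibroblast and neutrophil marker lists across deciles of spots, 1 panel per day, with exact Poisson 95% intervals. The drawn marker lists are high toward the muscle-poor end, as are the cell cycle genes. On day 7 the mitosis genes and the myofibroblast list have their highest value in the second decile, and the macrophage and neutrophil lists in the lowest. The mitosis intervals of these 2 deciles overlap. Fibroblast and endothelial lists are not drawn. On day 14 the mitosis genes go from 521 in the lowest decile to 152 in the next.

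Other cell types moved with the same quartiles. All 10 macrophage markers, all 8 myofibroblast markers and all 7 neutrophil markers were called higher in the lowest quartile. All 10 heart muscle markers, of which 2 ranked the spots, were called lower. Of all genes tested, 26.9% were called higher and 24.1% lower. The macrophage list summed to 1211, 6890, 5056 and 1906 CPM in the lowest quartiles of days 1, 4, 7 and 14 and to 356 to 533 in the highest. The myofibroblast list summed to 1094, 9177, 8586 and 1735 against 103 to 245. The neutrophil list was highest on day 1, at 457, and at 114 to 174 on the other days, against 5.47 to 20.6. Of the 8 endothelial markers, 3 were called lower and none higher after TMM scaling. By CPM, 2 of them were higher and 0 lower in all 4 sections. The endothelial list was at 1163 to 1386 in the lowest and 1212 to 1390 in the highest quartile. The 8 fibroblast markers split into 5 higher and 1 lower. Their sum was 34540, 37758 and 10136 CPM in the lowest quartiles of days 4, 7 and 14, against 3478, 3761 and 2673 in the highest. On day 1 it was 2678 against 3354, a ratio of 0.798 (0.775 to 0.823). Of 4 mesothelial markers 3 were higher, with 244 CPM in the day 7 lowest quartile. Of 6 smooth muscle and pericyte markers, 2 were higher and 3 lower. Only 2 of 7 lymphocyte markers had enough UMIs to be tested, and 1 was higher. Of the erythroid precursor markers, Gata1 and Car1 were at 0 and the list was at 2.18 to 5.76 in the lowest quartile. The part of any of these cells in the result was not tested.

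Within the lowest quartile, spots were split at the section's median share of each of 3 marker lists, and edgeR compared the marker-rich with the marker-poor spots over 4 sections. No member was called for any of the lists, of 41 tested, and DESeq2 also called none. Of all 10548 genes edgeR called 0% in the macrophage split, 0% in the fibroblast split and 0.815% in the endothelial split, while at an unadjusted p under 0.05 there were 900 higher and 1245 lower, 669 and 964, and 505 and 468. Macrophage-rich spots had a member median log2 fold change of 0.34, against 0.03 over all genes, and 5 members were higher at an unadjusted p under 0.05, namely Mki67, Cdk1, Gins2, Mcm5 and Aurkb. Summed as CPM without TMM, the 44 genes were 1.13-fold (1.04 to 1.23) higher in the macrophage-rich spots on day 1, and 1.46-fold, 1.85-fold and 3.41-fold (2.90 to 4.01) on the later days. On day 14 the median macrophage-rich spot held 1219 UMIs and the median macrophage-poor spot 6800. Fibroblast-rich spots had a median of 0.29 and summed ratios of 1.12, 1.28, 1.48 and 3.42, with no member under 0.05 unadjusted. On day 14 the median fibroblast-rich spot held 1127 UMIs and the median fibroblast-poor spot 6919. Endothelium-rich spots had a median of -0.23, and 8 members were lower at an unadjusted p under 0.05, Hmmr first (-1.24 ± 0.38, adjusted p = 0.129). Their summed ratios were 1.01 (0.931 to 1.10), 0.827, 0.715 and 0.688 (0.585 to 0.810).

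The share of single spots with a mitosis UMI followed the same order. After each spot was thinned to 1000 UMIs, 34.6% (30.2 to 39.2, exact binomial 95% interval) of spots in the day 1 lowest quartile held at least 1 UMI of the 30 mitosis genes. On days 4, 7 and 14 the share was 58.8% (53.9 to 63.6), 29.2% (24.8 to 33.8) and 17.1% (13.4 to 21.2), against 7.99% to 12.8% in the highest quartiles. Spots under 1000 UMIs were left out, 22, 5, 47 and 141 of them in the lowest quartiles and at most 8 in the highest. Unthinned, the shares were 76.1%, 95.2%, 53.7% and 38.3%, against 46.8% to 62.8% in the highest quartiles, whose spots were deeper on days 4, 7 and 14. Without Cenpa, Cenpf, Hmgb2 and Stmn1 the thinned shares were 25.3%, 53.7%, 24.8% and 10.5% in the lowest quartile and 0.426%, 0.957%, 3.90% and 2.73% in the highest. Counted without thinning, 5 or more of these 26 genes were found in the same spot in 152 of 420 spots of the day 4 lowest quartile. The count was 36, 16 and 3 spots on days 1, 7 and 14, and 1 spot of all highest quartiles. The richest spot, on day 4, held 19 of these genes. The median spot of the lowest quartile held 6389, 6524.5, 2826 and 2329.5 UMIs on days 1, 4, 7 and 14, so these counts also differ in depth.

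By the median log2 fold change over all sections, the second quartile lay between the lowest and the highest. Summed CPM did not follow this order on day 14. Deciles 4 and 5 of that section, which lie within its second quartile, held 187 (168 to 208) and 167 (149 to 186) CPM, against 200 in its highest quartile. Compared with the highest, 5 members were called higher there, Ube2c, Ccna2, Racgap1, Cks2 and Tpx2, against 2.72% of all genes, and 1, Cenpf, lower, against 0.307%. The median log2 fold change of the 44 genes was 1.40 in the second and 0.27 in the third quartile.

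The rest of the pathway was read from 5 further lists against the same background, 26.9% of all genes called higher and 24.1% lower. Of 29 other mitosis genes tested, 26 were higher and none lower, with a median log2 fold change of 2.53. Smc4, a condensin subunit, changed by 1.15 ± 0.24, and Cks1b by 1.70 ± 0.40. Of 23 other replication genes 17 were higher and none lower. Dut, the dUTPase, was at -0.34 ± 0.15 (adjusted p = 0.0623) although higher in 4 of 4 sections by CPM, and Slbp, which binds histone mRNA, changed by 0.56 ± 0.17. Of 8 G1 cyclins and their kinases, 4 were higher. Ccnd3, cyclin D3, was at 0.27 ± 0.12 (adjusted p = 0.0658), whereas its kinase Cdk4 rose by 0.97 ± 0.15 (adjusted p = 6.91e-05). Of 6 inhibitors of the cyclin-dependent kinases tested, 3 were higher. Cdkn1a, the p53 target p21, rose by 1.31 ± 0.24, and Cdkn2d was at 0.06 ± 0.18.

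Among 15 E2F, RB and mitotic transcription factors tested, 7 were higher and 3 lower, against 26.9% and 24.1% of all genes tested. Higher were E2f1 (2.54 ± 0.43) and the mitotic factors Foxm1 (2.63 ± 0.51) and Mybl2, which encodes B-Myb (4.45 ± 1.05). Mybl2 had only 51 UMIs over all libraries and was higher in 3 of the 4 sections. The 3 genes lower were E2f6, a repressor of E2F genes (-0.94 ± 0.17, adjusted p = 0.00027), Tfdp2, a partner of E2F proteins (-1.58 ± 0.28, adjusted p = 0.00028), and Rbl2, the pocket protein p130 of quiescent cells (-0.69 ± 0.24, adjusted p = 0.021). With total UMIs in place of TMM, Tfdp2 was still called (-0.92, adjusted p = 0.0028), while E2f6 (-0.30, adjusted p = 0.0731) and Rbl2 (-0.04, adjusted p = 0.88) were not. By CPM, E2f6 was lower in 4 of the 4 sections, Tfdp2 in 3 and Rbl2 in 2. Tfdp1, another E2F partner, rose by 0.65 ± 0.19.

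The genes whose level followed the summed members most closely over the 16 libraries were H2afz (Pearson r of log2 values 0.988), Dad1, Ppia, Syncrip, Rpl4, Sdcbp, Arf1, Rpl6, Vmp1 and Actg1 (0.978), of 10180 genes with at least 200 UMIs. The libraries share sections and the rank by muscle RNA, so the correlation is given as a description. H2afz, the histone variant H2A.Z, was at 197, 360, 210 and 104 CPM in the lowest quartiles and at 64.8 to 83.7 in the highest. The summed cell type lists had r of 0.86 for macrophage, 0.85 for myofibroblast, 0.80 for neutrophil, 0.88 for lymphocyte, 0.70 for fibroblast, 0.48 for smooth muscle and pericyte, 0.41 for mesothelial, 0.07 for endothelial, -0.09 for erythroid precursor and -0.84 for heart muscle markers.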

How the data were processed

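Visium libraries of 4 heart sections, 1 mouse each on days 1, 4, 7 and 14 after ligation, were analysed. The authors deposited raw UMI counts per gene and tissue spot, made with Space Ranger 1.3.0 on mm10. The submitters' processing notes also name Seurat 4.1.1. Images and spot positions were not used here. Slide positions give the barcodes, and 1332 of 3178 were used in all 4 sections, which does not mean shared cells.

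Spots with over 1% hemoglobin UMIs (8 genes) were removed. UMIs were summed per section and quartile of spots, ranked on Myh6 and Myl2, which gave 16 libraries of 1470333 to 4729701 UMIs. edgeR 4.0.16 was run on genes with at least 50 UMIs, using TMM factors, a term for section and its robust quasi-likelihood test. Benjamini-Hochberg adjustment covered all 12694 genes. A standard error is the log2 fold change over the square root of F. Section counts use CPM without TMM. Tested on simulated data for this comparison, edgeR called 49 of 100 genes changed by a log2 value of 1 and 97 of 100 changed by 2, with 7 false calls of 153. In the simulation all other genes had equal rates in all libraries, changes went only upward and the dispersion was fixed. The real data had many calls in both directions, so these rates need not hold there. With 1 mouse per day, days were not tested, and ratios have exact conditional intervals for counting error only. Splits of the lowest quartile by a marker list gave 8 libraries each. Thinning was done once at random.

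The members, lists and tests were chosen with earlier results of these data known. Named in full were the 2 members with the most UMIs per role, the 3 largest and 3 smallest log2 fold changes and members against the common sign, in other lists the 2 genes with the most UMIs and those called against their list, and the 10 genes of most similar pattern. Other genes named for a count or contrast were chosen after their values were seen. Alternatives were DESeq2 1.42.0, other scalings, filters, rankings and groupings, and each section left out. Gene coordinates are from GENCODE vM21 (GRCm38) and promoters from RefSeq.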

Additional observations from a re-analysis of the deposited data

Results flagged for a closer look

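The 4 kinetochore and centromere genes together were 1.82-fold higher in the lowest than in the highest quartile of spots on day 4, but stood at 0.773 of it on day 1 and 0.738 on day 14, each with an interval on its own side of 1. The difference between the days was not tested, with 1 mouse per day. Cenpa and Cenpf hold most of this sum.

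The spots left out for hemoglobin enter only the alternative without the hemoglobin filter. In those spots, the 39 members other than Cenpa, Cenpf, Hmgb2, Pcna and Stmn1 were 1.64-fold (1.41 to 1.89) as high as in the kept spots on day 14, in 655 spots. On day 1 they were lower there, 0.810 (0.674 to 0.965), and on days 4 and 7 the intervals included 1.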

How the results depend on the processing

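Of the members' calls between the lowest and the highest quartile, none changed direction under any alternative, and between 36 and 42 were called higher wherever all 4 sections and a minimum of at most 50 UMIs were used. The lowest of these were 36 with only the lowest and highest quartile in the fit and 38 without the section block or in spots of at least 1000 UMIs. With a minimum of 1000 UMIs only 4 members were tested, with 2 higher and 2 lower, and all genes gave 1679 higher and 1548 lower. Leaving out a section gave 28 to 42 members higher and 2 lower in each case, with 2251 (without day 4) to 3259 (without day 14) of all genes higher. Total UMIs in place of TMM left 1 member lower, Cenpf, with 7236 of all genes higher and 1278 lower, and total UMIs without Myh6 and Myl2 also left 1, with 7070 and 1332.

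For the marker splits, all genes called were 578 (macrophage), 342 (fibroblast) and 12 (endothelial) with DESeq2, and 165 for macrophage in spots of at least 1000 UMIs. Leaving out a section gave 0 (without day 4) to 924 (without day 1), 0 (without day 4) to 9 (without day 14), and 23 (without day 4) to 101 (without day 1). No member was called in any of these.

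The summed ratio of days 1, 4, 7 and 14 was 5.22, 8.84, 3.63 and 3.92 between deciles, and 10.2, 16.7, 5.75 and 2.31 without Cenpa, Cenpf, Hmgb2, Pcna and Stmn1. On day 7 it was 3.81 without skeletal muscle spots. On day 14 it was 1.97 without the hemoglobin filter, 1.25 in spots of at least 1000 UMIs and 1.22 ranked on 8 other heart muscle genes. In spots under 0.5% Myh6 and Myl2, 13 members passed 2-fold for day 4 over day 1 and 23 over day 14. The share of spots with a mitosis UMI was 18.5%, 37.5%, 19.3% and 13.2% thinned to 500 UMIs, 47.6%, 76.0%, 46.5% and 25.2% thinned to 2000, and 25.3%, 53.7%, 24.8% and 10.5% without Cenpa, Cenpf, Hmgb2 and Stmn1. The cause of these changes was not tested.

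The settings without 4 or 5 genes, without skeletal muscle spots and under 0.5% were chosen after seeing the data. No paired analysis was possible between days because each day has 1 sample, while the quartiles were compared within sections. With 58 UMIs for the rarest member, single genes have wide intervals.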
